A study of Gallus gallus with 20 samples.

Results

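The loci described here are 2814 transcribed stretches of the chicken genome. In the gene table of an RNA-seq study they carry identifiers of their own, apart from those of the annotated genes. They were chosen by that identifier alone, with no measured value, and they make up 2814 of the 27170 entries of the table. The other entries are 13688 annotated genes with a symbol and 10668 without one. Each locus is named below by the number that ends its identifier in the table, so that "locus 653" is the entry numbered 653. The sources used here do not give the program and rule that defined them.

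The study profiled 2 tissues, the liver and the breast muscle or pectoralis major, of KRC, the chickens named in the labels, in a flock of both sexes. A first set of 125 chicks was raised conventionally on commercial feed, in 5 pens. A second set of 125 chicks, also in 5 pens, received feed of organic ingredients and could go out onto pasture from day 21. Slaughter was at 91 days, and each of the 4 groups (conventional liver, organic liver, conventional breast muscle, organic breast muscle) has 5 libraries. Feed and pasture changed together and cannot be told apart. The design gives 5 chickens per system, but no label ties a liver library to a muscle library, so the numbers of the replicates were not taken as birds. P-values measure the spread between these libraries.

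Genome annotation is built from transcripts and protein matches, and stretches that lie in gaps of an assembly, on poorly assembled small chromosomes or in repeats are often missed. RNA that falls outside it can come from genes still unannotated, from unannotated ends of known genes, from long non-coding RNAs, or from endogenous retroviruses and transposons, which are copies of mobile DNA. Liver and fast-twitch breast muscle express very different sets of genes, liver mostly secreted plasma proteins and metabolic enzymes, and muscle mostly proteins of the sarcomere and of calcium handling.

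Library totals ranged from 12699692 to 20488526 counts, and all libraries carried the transcripts of their labelled tissue. The mean of 11 measured hepatocyte markers was 10.2 to 11 log2 CPM (counts scaled to a common library size) in liver and -0.78 to 0.01 in muscle. The mean of 6 measured muscle fibre markers was -2.17 to -1.23 log2 CPM in liver, where the calcium-binding protein PVALB had 0 counts in every library, and 10.7 to 12 in muscle. Between 1.08% and 1.46% of each library's counts fell on unannotated loci. The share was 1.21% ± 0.104 (SD, n = 5) in conventional liver, 1.22% ± 0.102 (SD, n = 5) in organic liver, 1.33% ± 0.0772 (SD, n = 5) in conventional muscle and 1.37% ± 0.103 (SD, n = 5) in organic muscle. By summed FPKM the order of the tissues turned, with 1.69% and 1.70% in conventional and organic liver and 1.3% and 1.31% in muscle.

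Most of the loci were short and formed 1 uninterrupted block. Their length, summed over exons, ran from 200 to 15660 bases with a median of 436 bases, against 2239 bases for annotated genes with a symbol and 1510 for those without. 873 loci (31%) were under 300 bases and 83 reached 5000. In 1877 loci (66.7%) the span on the chromosome equalled the length, so that they form 1 uninterrupted block. This held for 12.1% of annotated genes with a symbol and 11.8% of those without. Among the loci the share was 88.5% under 300 bases and 44.6% at 5000 bases or more. Whether the transcripts are spliced was not tested. The 3 shortest, loci 1364, 1903 and 2624, were each 200 bases long and had 12, 21 and 1 counts over all 20 libraries. The 3 longest were locus 183 (15660 bases, chromosome 1), locus 591 (15025 bases, chromosome 13) and locus 341 (13627 bases, chromosome 1).

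**Figure D1:**
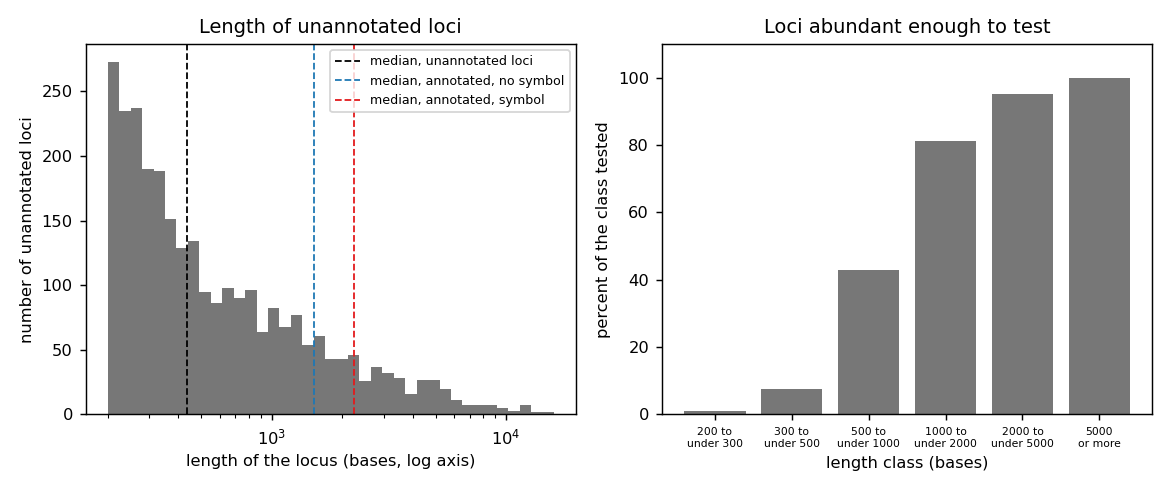
Left, number of unannotated loci by length in bases (log axis), with dashed lines at their median and at the medians of annotated genes with and without a symbol. Right, percent of each length class that had enough counts to enter the tissue test: 0.916% of loci under 300 bases and 100% of those of 5000 bases or more.

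The loci that could be tested were the longer ones. The filter on low counts (a minimum count of 10) left 919 of 2814 loci for the comparison of tissues. Their median length was 1396 bases, against 316 bases for the 1895 that were not tested. Of the 873 loci under 300 bases 8 were tested, and of the 83 loci of 5000 bases or more all 83 were. Those 83 loci held 41.4% of the counts of all unannotated loci. Much of this came from loci 653 and 1841, both among the 83. Locus 653 alone held 32.7% of such counts in breast muscle and locus 1841 alone 16.7% in liver. 12 loci had 0 counts in every library.

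The loci lay on every chromosome of the table except the mitochondrial genome, which held 0. Chromosome 1 held 400 of them, chromosome 2 held 277, chromosome 3 held 225, the sex chromosome Z held 173 and chromosome 5 held 161. As a share of the entries of a chromosome they were most frequent on unplaced scaffolds (145 loci, 24.5% of the entries there) and on the small chromosomes 32 (23.0%), 30 (21.3%), 16 (19.4%, the chromosome of the chicken major histocompatibility complex) and 31 (16.1%). They made up 15.6% of the entries of the female-specific chromosome W, with 23 loci, and 6.63% of those of chromosome 4. Unplaced scaffolds held 5.15% of the unannotated loci and 1.83% of the annotated genes. The strands were near balance, with 1384 loci on the plus and 1430 on the minus strand.

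Few loci overlapped an annotated gene, but many lay close to one. 5 overlapped a gene by at least 1 base, 2 on the same strand, 2 on the opposite strand and 1 on both. Of the 2783 others with an annotated gene on their sequence, 1718 (61.7%) lay within 5000 bases of it, and the median distance was 3408 bases. Those 1718 fell in all 4 orientations: 480 lay downstream on the gene's own strand, 401 upstream on it, 383 downstream on the opposite strand and 454 upstream on it. 26 loci lay on a sequence with no annotated gene. Annotated genes lay close to each other as well. Among 715 loci tested along with their nearest gene, 286 lay within 1000 bases of it and 280 from 1000 to 5000. Among 10010 annotated genes 2420 overlapped their nearest gene, 2671 lay within 1000 bases and 3000 from 1000 to 5000. Neither the counting rule nor the strandedness of the libraries is known here, so reads of a locus and of a gene or locus that overlaps it cannot be told apart.

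A protein match was rare. The deposited table gives a similar protein for 308 loci and a Pfam protein domain for 130, in all 323 loci (11.5%), and neither for 2491. Loci with a match had a median length of 822 bases and those without one 405. 28 loci had a protein or domain entry with words that name retroviruses, transposons or their enzymes. A domain alone, such as RNase H, was enough. The similarity is the authors' own entry, and a locus is described by it below without being taken for that gene.

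Within each tissue a few loci held a large part of the counts on unannotated loci. In liver the 5 most abundant held 49.7% and the 10 most abundant 59.7% of all counts on unannotated loci. In breast muscle 5 loci held 61.5%, and locus 653 alone held 32.7%. The median locus had a mean of 0.152 CPM in liver and 0.117 CPM in muscle. 575 loci reached a mean of 1 CPM in liver and 516 in muscle, 111 reached 10 CPM in each tissue, and 13 and 12 reached 100 CPM.

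Locus 653 was the most abundant in muscle. It lies on the minus strand of chromosome 14 (14208300 to 14230584, build GRCg6a as the submitters' processing notes name it), has 5528 bases of exon over a span of 22285 and carries no protein match. Its CPM was 3552 to 6084 in the 10 muscle libraries, with a median of 4766, and 0.359 to 2.45 in the 10 liver libraries, with a median of 0.905. The tissues did not overlap. By group the means were 4376 ± 425 CPM in conventional muscle and 4890 ± 910 CPM in organic muscle (SD, n = 5 each). Liver over muscle had a log2 fold change of -12.14 ± 0.30 (SE; edgeR quasi-likelihood test, Benjamini-Hochberg adjusted p = 5.08e-19). Its mean of 835 FPKM (the deposited value per length and library size) lay below the 1809 FPKM of locus 1391 in the same tissue.

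Locus 1841 was abundant in both tissues. It is a single block of 5498 bases on the minus strand of chromosome 33 (6249683 to 6255180), 13 bases from a short annotated entry on the other strand named RF01684. Its CPM was 1411 to 2541 in liver with a median of 2020, and 1500 to 2004 in muscle with a median of 1753, so that the ranges overlapped. The mean was highest in organic liver, at 2055 ± 342 CPM, and lowest in conventional muscle, at 1678 ± 105 CPM (SD, n = 5 each). Between tissues its log2 fold change of 0.12 ± 0.10 did not pass the test (edgeR, adjusted p = 0.274). It was the only one of the 15 most abundant loci that did not. In muscle the organic libraries, at 1755 to 2004 CPM, all lay above the conventional ones, at 1500 to 1751 CPM, and the log2 fold change of 0.15 ± 0.12 did not pass (adjusted p = 0.768).

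**Figure D2:**
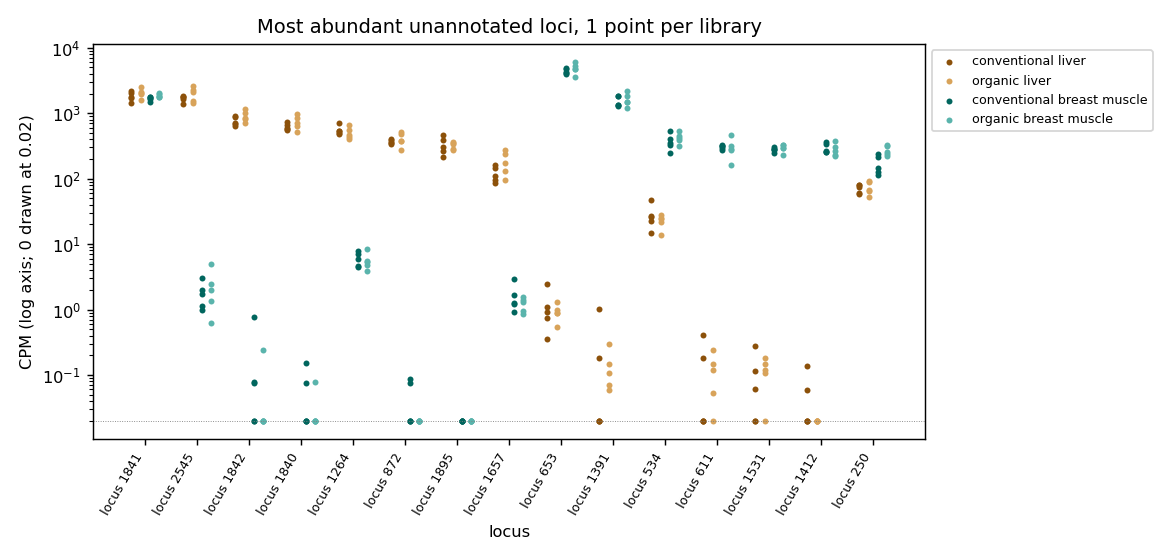
CPM (log axis) of the 15 most abundant unannotated loci of liver or breast muscle in each of the 20 libraries, coloured by group, with values of 0 drawn at 0.02. All but locus 1841 separate by tissue, and conventional and organic libraries of a tissue overlap at each of the 15 loci except locus 1841 in breast muscle.

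The next loci were abundant in liver alone. Locus 2545 (scaffold KZ626834.1, 163327 to 165218, minus strand, 1094 bases) had 1408 to 2629 CPM in liver with a median of 1769, and 0.627 to 4.98 in muscle with a median of 1.83. No liver library came near a muscle library, and the log2 fold change was 9.84 ± 0.33 (edgeR, adjusted p = 4.97e-17). The gene 214 bases away, PSMB6, a subunit of the proteasome, went the other way at -0.79 ± 0.16. Locus 1842 (chromosome 33, 6172125 to 6174520, minus strand, 790 bases) had 637 to 1145 CPM in liver with a median of 834. In muscle it had 14 counts in all 10 libraries together, 9 of them in conventional replicate 3. Its log2 fold change was 12.98 ± 0.41 (edgeR, adjusted p = 2.19e-17) and 14.34 without organic muscle replicate 4.

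Locus 1840, on the same chromosome and strand (6162364 to 6167217, 507 bases), lies close to locus 1842 and carries the Pfam domain of apolipoprotein C-II, the plasma protein that activates lipoprotein lipase. It had 521 to 958 CPM in liver with a median of 642. Muscle libraries held 0 to 2 counts, 4 in all, against 107358 in liver. A log2 fold change of 14.14 ± 0.29 was past the threshold (edgeR, adjusted p = 5.40e-20) and moved to 14.90 without organic muscle replicate 3. Locus 1810 lies on the opposite strand, over 2120 of the 4854 bases that locus 1840 spans. It carries the same domain and had 69.8 to 291 CPM in liver, with a median of 98.9, and 0 counts in muscle. With 3 counts over the 10 muscle libraries as the limit that a count of 0 allows, it was at least 5501-fold higher in liver.

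The other abundant liver loci included a match to a complement protein and a long locus with an RNase H domain. Locus 1264 (chromosome 23, 1880361 to 1887477, minus strand) matches complement C2, a protease of the complement cascade made in liver. It had 402 to 704 CPM in liver with a median of 520, and 3.92 to 8.33 in muscle with a median of 5.46, a log2 fold change of 6.51 ± 0.18 (edgeR, adjusted p = 1.90e-18). Locus 872 (chromosome 2, 537035 to 538738, plus strand, 620 bases) carries no match. It had 278 to 515 CPM in liver with a median of 377, and 2 counts in all muscle libraries together, a ratio of 26409 with a 95% exact interval of 7310.4 to 218070.0 that covers counting error only.

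Locus 1895 is a single block of 12212 bases on the plus strand of chromosome 4 (44631120 to 44643331) with an RNase H domain, an enzyme part of reverse transcriptases. It had 213 to 465 CPM in liver with a median of 324 and 0 counts in every muscle library, so that it was at least 14671-fold higher in liver. Locus 1657 (chromosome 3, 104465362 to 104468643, minus strand) matches cGMP-dependent protein kinase 2 and lies 210 bases from KHK, ketohexokinase, the first enzyme of fructose breakdown in liver, on the other strand. The locus had 85.6 to 276 CPM in liver with a median of 139, and 0.845 to 2.94 in muscle with a median of 1.29, and both it (6.72 ± 0.25) and KHK (11.76 ± 0.32) were higher in liver on the log2 scale.

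In muscle the abundant or most biased loci with a match resembled proteins of the sarcomere, the calcium store and the muscle membrane. Locus 1391 (chromosome 27, 7036807 to 7038388, plus strand, 875 bases) matches telethonin, the cap protein that holds titin at the Z-disc. It had 1196 to 2224 CPM in muscle with a median of 1494, and 0 to 1.03 in liver with a median of 0.0883. Its log2 fold change was -13.05 ± 0.45 (edgeR, adjusted p = 1.27e-16) and -14.11 without conventional liver replicate 4, the liver library with 15 of the 29 liver counts. Locus 1412, on the opposite strand over the same bases, also matches telethonin and had 219 to 381 CPM in muscle with a median of 263, and 3 counts in all liver libraries together. The ratio was 13989.9, with a 95% exact interval of 4787 to 67841.

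Locus 1531 (chromosome 3, 68835677 to 68857097, plus strand, 9490 bases) matches Popeye domain-containing protein 3, a cAMP-binding membrane protein of striated muscle. It had 226 to 333 CPM in muscle with a median of 288, and 0 to 0.274 in liver. It lies 1499 bases from BVES, another gene of the Popeye family, whose log2 fold change of -9.43 ± 0.33 had the same sign as the -11.37 ± 0.25 of the locus. Locus 666 (chromosome 15, 258871 to 264377, plus strand, 682 bases) matches SERCA1, the calcium pump of fast muscle. It had 95.1 to 208 CPM in muscle with a median of 125, and 0 counts in liver, at least 6559-fold higher in muscle. Locus 2317 (chromosome 7, 35247750 to 35257976, minus strand) matches nebulin, the ruler of the thin filament, and had 14.2 to 47.4 CPM in muscle with a median of 34.2, and 0 counts in liver, at least 1593-fold higher in muscle.

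Of the abundant muscle loci, 611, 534 and 250 carried no match. Locus 611 lies on the plus strand over locus 653 and had 164 to 464 CPM in muscle with a median of 306, and 18 counts in liver. Locus 534 (chromosome 12, 3909628 to 3911117, minus strand, 1468 bases) lies 986 bases from IARS, an aminoacyl-tRNA synthetase, and had 248 to 536 CPM in muscle with a median of 401, and 13.6 to 46.6 in liver with a median of 24.2. Its log2 fold change was -4.0 ± 0.20 (edgeR, adjusted p = 5.31e-14), while that of IARS was 0.01 ± 0.25. Locus 250, nearly a single block of 12853 bases next to ADSL on chromosome 1 (50106882 to 50119758, minus strand), had 112 to 329 CPM in muscle with a median of 230, and 51.6 to 91.0 in liver, a log2 fold change of -1.58 ± 0.15 (edgeR, adjusted p = 2.11e-09).

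The 3 longest loci also differed between tissues. Locus 183 (chromosome 1, 182260474 to 182276133, a single block, 2614 bases downstream of GUCY1A2, a subunit of the nitric oxide receptor) had 21.6 to 59.4 CPM in muscle with a median of 34.2, and 2.95 to 8.72 in liver with a median of 4.99. Both it (-2.83 ± 0.20 on the log2 scale) and GUCY1A2 (-1.74 ± 0.41) were higher in muscle by edgeR. Locus 341 (chromosome 1, 143894645 to 143925414) lies 165341 bases from the nearest annotated gene. It had 16.4 to 88.4 CPM in liver with a median of 44.7 and 0 counts in muscle, at least 2279-fold higher in liver. Locus 591 had 1.24 to 39.0 CPM in liver, the highest in conventional replicate 5, with a median of 3.56, and 20 counts in muscle. It had a log2 fold change of 5.42 ± 0.62 (edgeR, adjusted p = 6.17e-08) and of 6.09 without organic muscle replicate 2.

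Over all loci tested, the tissue was by far the larger of the study's contrasts. Of the 919 loci 716 (77.9%) differed between liver and muscle at an adjusted p under 0.05 (edgeR), against 81.5% of all 14447 genes tested. 725 had an unadjusted p under 0.05, as did 82.3% of all genes. 391 were higher in liver, where 42.5% of all genes were, and 325 were higher in muscle, where 39.1% were. With a change of 2-fold or more as a second condition the count was 626 (68.1%), against 54.9% of all genes. Among annotated genes without a symbol the share was 61.2%. The 626 split into 349 higher in liver and 277 higher in muscle, where 29.6% and 25.3% of all genes stood. The 10 libraries of a tissue did not overlap those of the other in 420 loci (45.7%), against 49.0% of all genes. The median size of the log2 fold change, whatever its sign, was 1.90 over the loci and 1.16 over all genes tested. The filter also admits a gene with enough counts in 1 tissue only. Within both tissues 373 loci and 10978 annotated genes passed it, against 919 and 13528 over all 20 libraries. The larger 2-fold share and median size are therefore no result about the loci.

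**Figure D3:**
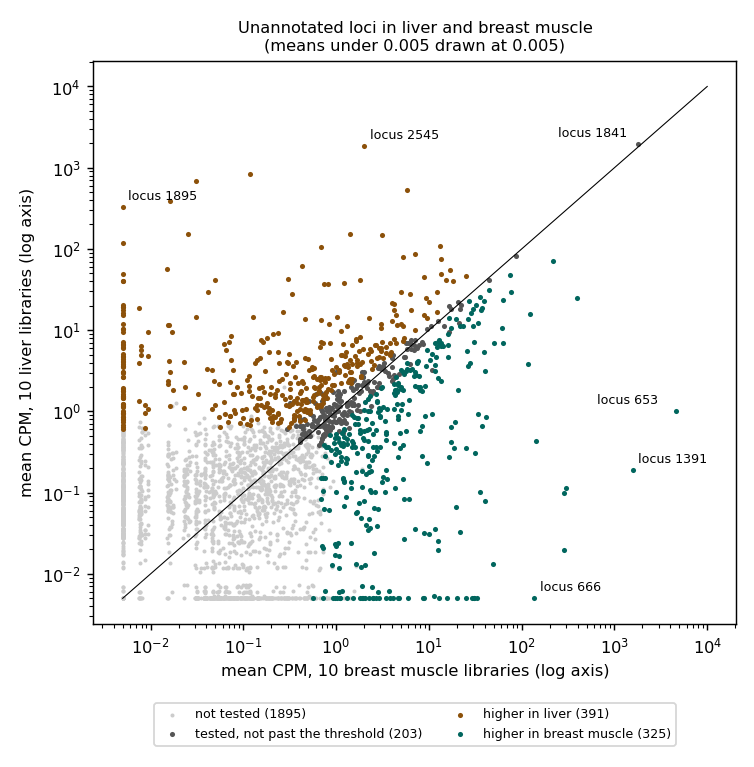
Mean CPM in 10 liver libraries against mean CPM in 10 breast muscle libraries for all 2814 unannotated loci (log axes, means under 0.005 drawn at 0.005). 391 loci were higher in liver and 325 higher in breast muscle by edgeR, and 1895 loci, most of them under 1 CPM in both tissues, were not tested.

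Detection followed the same line. Counting a locus as detected in a tissue when at least 5 of its 10 libraries held 10 counts or more, 385 loci were detected in both tissues, 334 in liver only, 201 in muscle only and 1894 in neither. The shares were 13.7%, 11.9%, 7.14% and 67.3%, against 45.4%, 6.22%, 3.87% and 44.5% of annotated genes. A liver library held 662 to 800 loci with 10 counts or more and a muscle library 562 to 641. Liver libraries were the deeper ones, so that part of this gap cannot be told apart from depth.

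Of the 212 tested loci with a protein or domain match 171 differed between tissues, 91 higher in liver and 80 higher in muscle. These are 80.7%, 42.9% and 37.7% of those tested, near the 81.5%, 42.5% and 39.1% of all genes. The groups described next were put together after their values were seen, from the 20 most abundant of each direction. Filamin-C, which links actin to the Z-disc and the membrane, was matched by locus 199 (chromosome 1, 754154 to 767202), with 76.5 to 303 CPM in muscle and 0.0532 to 0.760 in liver and a log2 fold change of -8.34 ± 0.35. Junctophilin-2, which holds the calcium stores of muscle to its outer membrane, was matched by locus 2614 (scaffold KZ626839.1), with 22.3 to 86.3 CPM in muscle and 0.0596 to 2.75 in liver and a log2 fold change of -5.65 ± 0.37. Beta-enolase, the glycolytic enolase of muscle, was matched by locus 2544 (scaffold KZ626834.1, 202 bases), with 6.76 to 143 CPM in muscle and 0 to 0.221 in liver. Locus 699, over locus 666 on the opposite strand, also matches SERCA1 and had 22.4 to 55.3 CPM in muscle and 0 counts in liver.

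Other loci higher in muscle had varied matches. They included LINC00998 (locus 37), cell division cycle-associated protein 4 (locus 2141), OTU domain-containing protein 5 (locus 1675) and NUDT18 (locus 1225). Further ones were alkB homolog 7 (locus 1691), OXA1L (locus 2566) and RNA-binding protein 23 (locus 1273). The log2 fold changes of these loci ran from -1.46 to -0.51. Loci 759 and 739 lay on chromosome 16. Locus 759 matches tenascin-X, a glycoprotein of connective tissue, and had 18.7 to 46.1 CPM in muscle and 0.211 to 2.03 in liver, a log2 fold change of -5.22 ± 0.29. Locus 739 matches TRIM38, a ubiquitin ligase known from immune signalling, and had 29.6 to 120 CPM in muscle with a median of 41.5, and 2 counts in all liver libraries together. The fibroblast markers, 8 of 8 measured, were also higher in muscle, at a mean of 7.65 to 9.23 log2 CPM against 2.96 to 4.36 in liver, and their part in the value of locus 759 was not tested. In whole tissue, fewer cells of a type and less RNA per cell cannot be told apart.

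In liver the most abundant matched loci had varied matches. They included ZNF394, a zinc finger protein, with 94.8 to 215 CPM in liver (locus 1771), followed by properdin and the membrane protein MARVELD3 (locus 507), C2orf72 (locus 2414), the ubiquitin ligase synoviolin (locus 1817), thrombomodulin (locus 1452) and, further down, exophilin-5 (locus 180), PML (locus 444) and FAM53B (locus 2247). Properdin, which stabilises the alternative complement pathway, was matched by locus 659 (chromosome 15), with 74.5 to 185 CPM in liver and 5.73 to 28.7 in muscle and a log2 fold change of 3.04 ± 0.26. Coagulation factor X, a clotting protease made in liver, was matched by locus 2387 (chromosome 9), with 25.9 to 52.5 CPM in liver and 0.465 to 2.29 in muscle and a log2 fold change of 4.95 ± 0.23. The zinc transporter ZIP5 was matched by locus 1853 (chromosome 33), with 23.6 to 62.0 CPM in liver and 6 counts in all muscle libraries. Its log2 fold change of 9.79 ± 0.35 moved to 10.55 without organic muscle replicate 3. Folate receptor alpha was matched by locus 194 (chromosome 1, 497 bases), with 12.2 to 28.2 CPM in liver and 0 counts in muscle, at least 869-fold higher in liver. A secretory phospholipase A2 of group 3 was matched by locus 722, with 4.97 to 102 CPM in liver and 5 counts in muscle, a log2 fold change of 9.18 ± 0.79 that moved to 10.28 without conventional muscle replicate 2.

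Of the 28 loci that match mobile elements 15 were tested between tissues, against 919 of all 2814 loci. By edgeR 13 of the 15 differed, 10 higher in liver and 3 higher in muscle. Over all genes tested 81.5% differed, 42.5% higher in liver and 39.1% higher in muscle. Within a tissue, 16 of the 28 passed the filter on low counts in liver and 4 in muscle, so most entered the test through liver, and the split is no result about elements. Among the liver-higher ones other than locus 1895, none exceeded 12.1 CPM in a liver library, locus 1955, which overlaps it on the other strand, included. Locus 1178 (Pol polyprotein, the retroviral enzyme precursor, on chromosome 20) had 1.69 to 7.40 CPM in liver and 0.150 to 0.735 in muscle. The 3 higher in muscle were locus 2088 (Pol polyprotein, chromosome 5, 12.9 to 28.3 CPM in muscle and 0 to 1.61 in liver), locus 74 (Mariner Mos1 transposase, chromosome 1, 8.22 to 21.5 and 0.615 to 3.91) and locus 167 (a polymerase of the R2 type, chromosome 1, 6.95 to 11.7 and 1.03 to 2.68). Elements have near-identical copies elsewhere in the genome, and since the counting rule is not given, their values are uncertain.

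Pairs of loci that lie over each other on opposite strands mostly had the same direction between tissues. There were 156 such pairs, formed by 296 loci, and 19 overlapping pairs on the same strand. In 85 opposite pairs both loci were tested, in 70 both differed between tissues, and in 69 of the 70 the direction was the same. For annotated genes, 1576 were tested along with a nearest gene that overlaps them on the opposite strand. Both differed in 1052, and 652 of these (62.0%) had the same direction. Reads of overlapping loci cannot be told apart here, so the shared direction is no result about the loci. Over the 96 pairs with 1000 or more counts on the fuller strand, the weaker strand held a median of 11.1% of the counts of the fuller one. Locus 611 held 4.61% to 7.66% of the counts of locus 653 in the 10 muscle libraries, and locus 1412 held 14.7% to 20.3% of those of locus 1391. In liver locus 2541 held 5.06% to 6.56% of the counts of locus 2545 and locus 1811 held 16.3% to 19.5% of those of locus 1842. Locus 1810 held 12% to 41% of the counts of locus 1840, and locus 1955 held 1.29% to 2.62% of those of locus 1895. Without the strandedness, the strand of a locus is the table's entry and not a measured fact.

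The nearest annotated gene had the same direction in most cases. Of 468 loci that differed between tissues along with their nearest annotated gene, 371 (79.3%) had the same sign as it. Among annotated genes and their nearest annotated gene, 4130 of 6675 (61.9%) did. The correlation of the log2 fold changes was 0.61 over 715 loci and 0.34 over 10010 annotated genes. This is a description across genes that share libraries and are not independent. Within both tissues 373 of the 919 tested loci passed the filter on low counts, against 10978 of 13528 annotated genes. Many loci were thus tested through the tissue where they are high, so the gap to annotated genes is no result about the loci. The share for the loci was 76.9% within 1000 bases, 80.5% from 1000 to 5000 and 82.5% from 5000 to 20000. It was 80.6% for neighbours on the same strand and 77.7% for those on the opposite strand. The exceptions included 2 of the most abundant: locus 2545 beside PSMB6 and locus 1264 beside RLF, a zinc finger gene, with a log2 fold change of -0.98 ± 0.09.

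Raising system changed no locus past the threshold by edgeR. In liver 0 of 693 tested loci had an adjusted p under 0.05 by edgeR (0.0% of all 13186 genes tested), and the smallest adjusted p was 0.625. 42 loci had an unadjusted p under 0.05 (6.06%), against 7.56% of all genes. DESeq2 called 0 of the loci and 31 of the 14887 genes it gave an adjusted p (0.208%). In muscle 0 of 565 tested loci passed by edgeR (0.0% of all 12496 genes), with a smallest adjusted p of 0.567. 46 had an unadjusted p under 0.05, where 7.47% of all genes did. DESeq2 called 1 of the loci and 15 of 15330 genes (0.0978%). The median log2 fold change of organic over conventional was -0.04 in liver and -0.01 in muscle, and both were -0.01 over all genes. Conventional and organic libraries did not overlap in 5 loci in liver, where 1.11% of all genes did not, and in 6 in muscle, where 1.18% did not.

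The 18 loci named above for abundance or tissue bias followed this. 12 were tested in liver, with log2 fold changes from -0.30 to 0.70 and no adjusted p under 0.653. 13 were tested in muscle, with log2 fold changes from -0.39 to 0.69. The smallest p there was that of locus 250 (unadjusted p = 0.00589, edgeR adjusted p = 0.567), whose means were 168 ± 55.5 CPM in conventional and 272 ± 46.1 in organic muscle (SD, n = 5 each).

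The 5 loci with the smallest p in each tissue are given as values that did not pass. Locus 738 was among them in both tissues. It lies on chromosome 16 (1772249 to 1774758, plus strand, 2292 bases), carries no match and lies 89 bases from an annotated gene without a symbol. In liver its CPM was 3.15, 3.35, 4.06, 5.44 and 5.84 in conventional and 2.77, 1.33, 1.97, 1.95 and 2.68 in organic libraries. In muscle it was 1.28, 1.73, 1.47, 1.76 and 1.47 in conventional and 0.375, 0.471, 0.853, 0.475 and 0.817 in organic libraries. Every organic library was below every conventional one in both tissues. No label says whether the tissues come from the same chickens, so the second tissue cannot be counted as an independent observation. It had log2 fold changes of -1.03 ± 0.28 in liver (edgeR, adjusted p = 0.625) and -1.35 ± 0.33 in muscle (adjusted p = 0.567), from 4 to 23 counts per muscle library.

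In liver locus 811 (chromosome 18, 8017362 to 8024346, a single block of 6985 bases, 3206 bases from the kinase gene MAP2K6) had 24.9, 19.1, 25.05, 11.8 and 21.2 CPM in conventional and 8.56, 10.3, 7.17, 10.8 and 18.8 in organic libraries. Organic replicate 5 lay within the conventional range and the other organic libraries below it. Its log2 fold change was -0.88 ± 0.28 (edgeR, adjusted p = 0.625). In muscle, where the locus was higher at 79.3 to 198 CPM, the systems overlapped. Locus 767 (chromosome 17) had 1.71, 1.55, 2.09, 1.45 and 1.87 CPM in conventional and 0.585, 0.958, 0.984, 0.828 and 1.25 in organic libraries, with no overlap. Locus 681 (chromosome 15, 279 bases from MORC2) went the other way, with 10.6 to 12.2 CPM in conventional and 13.5 to 19.4 in organic libraries, also with no overlap and a log2 fold change of 0.39 ± 0.13.

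Locus 2431 (chromosome 9) had 0.877 to 3.08 CPM in conventional and 2.55 to 6.63 in organic liver, with a log2 fold change of 1.16 ± 0.37 and an edgeR adjusted p of 0.625. The fibroblast markers in liver stood at 3.74 to 4.36 mean log2 CPM in conventional and 2.96 to 3.74 in organic libraries, and their part in the liver values was not tested.

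In muscle locus 715 (chromosome 15, 8245711 to 8252482, minus strand, 2180 bases) had 0.376, 1.35, 0.866, 0.689 and 1.24 CPM in conventional and 1.69, 3.84, 2.25, 2.93 and 2.94 in organic libraries. All organic libraries were above all conventional ones. The log2 fold change was 1.59 ± 0.37 (edgeR, adjusted p = 0.567), and this was the locus that DESeq2 called, at 1.61 and an adjusted p of 0.0477. Its nearest annotated gene, VPREB3, a gene of early B cells, had a mean of 0.0787 CPM in muscle and was not tested.

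Locus 2100 (chromosome 5, 53 bases from TP53I11) had 34.2, 18.4, 10.1, 25.4 and 19.3 CPM in conventional and 9.20, 8.78, 9.46, 13.6 and 12.3 in organic muscle. The ranges overlapped through conventional replicate 3, and the log2 fold changes of the locus (-1.01 ± 0.27) and of TP53I11 (-1.0) had the same sign, neither past the threshold. Locus 1429 (chromosome 28, 1400 bases from the transcription factor gene JUND) had 1.24 to 2.68 CPM in conventional and 2.14 to 4.47 in organic muscle, and the ranges overlapped.

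Locus 252 (chromosome 1, 51129631 to 51130755, a single block) matches histone H5, the linker histone of the nucleated red cells of birds. It had 2.94, 2.40, 2.77, 3.14 and 1.24 CPM in conventional and 3.0, 4.47, 4.58, 8.70 and 6.86 in organic muscle. Organic replicates 4 and 5 were the highest, and replicate 1 lay within the conventional range. The log2 fold change was 1.14 ± 0.33 (edgeR, adjusted p = 0.567). The mean of the 6 measured erythrocyte markers was highest in those same libraries, at 3.70 and 2.94 log2 CPM, against 1.73 to 2.22 in the other organic and 1.83 to 2.32 in the conventional muscle libraries. The part of red cells in the value of this locus was not tested.

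**Figure D4:**
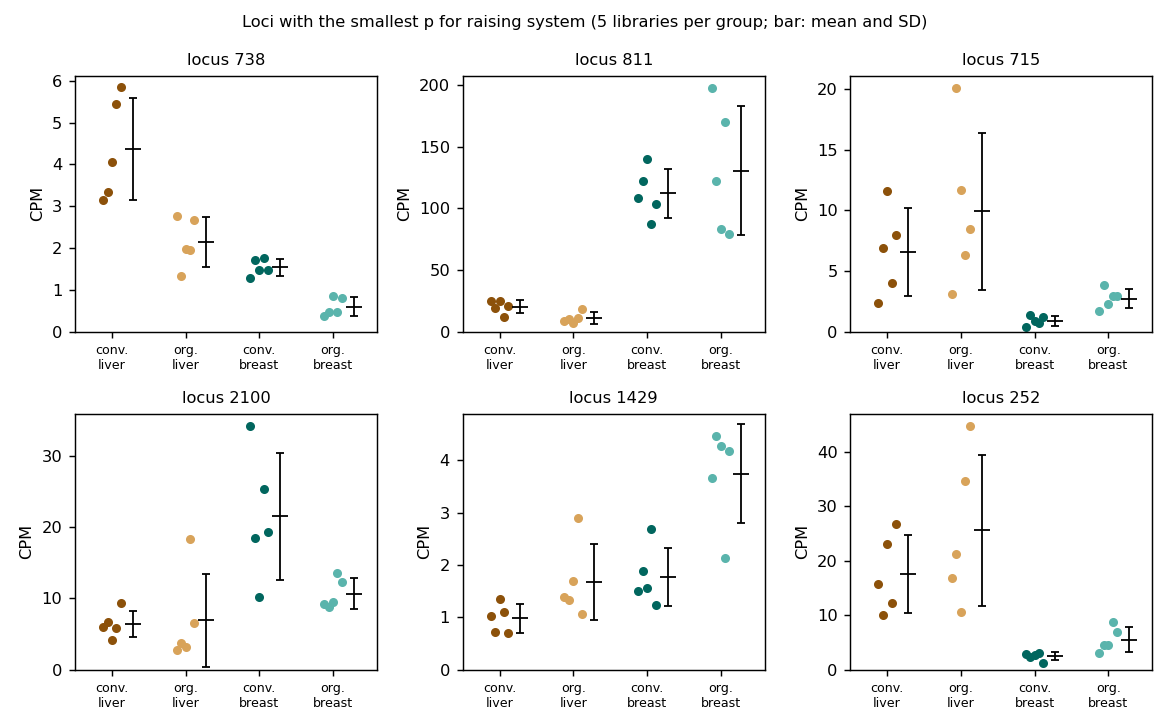
CPM of 6 of the loci with the smallest p for raising system, 1 point per library, with the mean and SD (n = 5) of each group as a bar. The groups did not overlap for locus 738 in either tissue and for locus 715 in breast muscle, and none of the 6 passed the edgeR threshold.

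The system change did not differ between the tissues at the threshold for any of 919 loci. By edgeR 0 passed (0.0% of 14447 genes), the smallest adjusted p was 0.819, 45 loci had an unadjusted p under 0.05 against 5.34% of all genes, and DESeq2 called 0. The 5 with the smallest p were loci 2188, 355, 203, 1298 and 1080. 4 of them rested on few counts in at least 1 tissue: locus 2188 had 17 counts in liver, locus 203 had 53 there, and loci 355 and 1080 had 40 and 10 in muscle. Locus 355, which matches a Gag-Pro-Pol polyprotein, had a log2 difference of -5.71 ± 1.73, and -3.84 without conventional liver replicate 1. Locus 1298 (chromosome 25) was the abundant one and overlaps HJV, haemojuvelin, a regulator of hepcidin and so of iron, on the same strand. Its CPM was 20.6, 33.5, 15.5, 14.5 and 23.0 in conventional and 9.41, 14.7, 15.7, 14.2 and 14.3 in organic liver. In muscle it was 26.4, 42.1, 29.8, 29.9 and 32.1 in conventional and 43.2, 28.6, 52.9, 34.3 and 40.8 in organic libraries. The ranges of the systems overlapped in both tissues, and the difference of -0.97 ± 0.30 had an edgeR adjusted p of 0.838.

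Some loci were on in some libraries and off in others, whatever the system. With "on" set at 20 counts or more and "off" at 1 count or fewer in each of the 10 libraries of a tissue, and at least 2 libraries in each state, 8 of 786 loci qualified in liver, where 0.111% of all genes with that many counts did, and 6 of 636 in muscle, where 0.0625% did. Annotated genes without a symbol qualified too, 7 of 2697 in liver (0.26%) and 2 of 2341 in muscle (0.0854%). Of those with a symbol 0 did in either tissue. The rule was set after the values were seen. A locus or gene entered with 20 counts in only 1 library, and scarcer entries fall to 1 count or fewer more easily. The shares were not matched for abundance, so the larger share of the loci is no result about them. 3 loci qualified in both tissues, loci 1065, 2559 and 658.

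For loci 2559 and 658 the state of a library was that of the same system and number in the other tissue; locus 1065 differed at conventional replicate 3, with 28 counts in liver and 0 in muscle. Locus 2559 (scaffold KZ626837.1, 1659840 to 1662222, 2160 bases) had 0 counts in replicate 5 of both systems in both tissues. Its other liver libraries held 87, 44, 64 and 67 counts in conventional and 127, 85, 139 and 311 in organic libraries, and its other muscle libraries held 71, 71, 109 and 87 and then 68, 73, 164 and 152. Locus 2565, on the same scaffold, had 0 counts in the same 4 libraries. Locus 658 (chromosome 15, 25756 to 27291, 1338 bases) was the reverse: it had 94 and 95 counts in replicate 1 of conventional and organic liver, 128 and 158 counts in replicate 1 of conventional and organic muscle, and 0 counts in the other 16 libraries.

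On chromosome 2, loci 990 (131027315 to 131036370) and 1125 (131258270 to 131260245) shared a pattern. Locus 990 had 128, 80 and 99 counts in conventional liver replicates 2, 3 and 5 and 71 and 152 in organic replicates 1 and 4, against 3 to 6 in the other liver libraries. In muscle the same numbers held 319, 279 and 189 and then 305 and 210 counts, and the others 1 to 4. Locus 1125 had 97, 253, 58, 114 and 55 counts in those 5 muscle libraries and 0 in the other 5. An annotated gene without a symbol, 239 bases from locus 990, was on in the same 5 muscle libraries. Loci 1107 and 1985 had their counts almost entirely in liver. Locus 1107, which matches Mariner Mos1 transposase, was on in 5 liver libraries with 99 to 205 counts, had 0 counts in the other 5 and had 1 count in all muscle libraries together. Locus 1985 (chromosome 4, 74149154 to 74154708) had 0 counts in organic liver replicates 2 and 5, 78 to 346 in the other 8 liver libraries and 0 in muscle. Annotated genes without a symbol on chromosomes 23 and W were on and off in the same liver libraries as locus 1985.

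**Figure D5:**
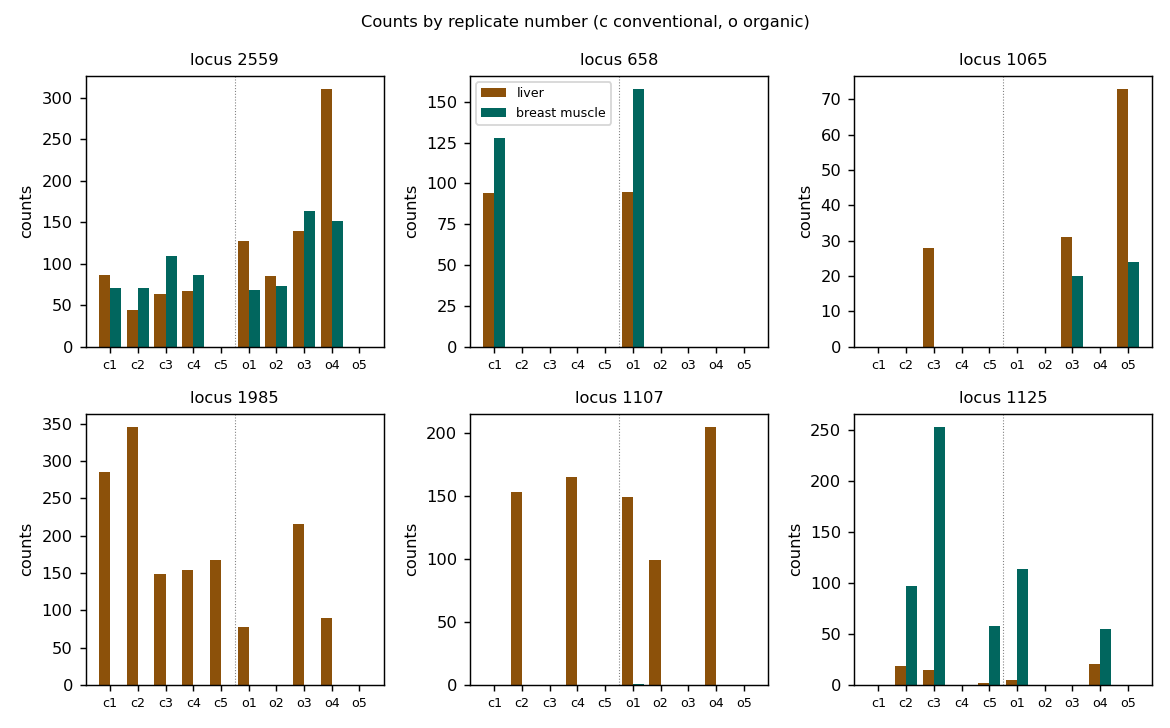
Counts of 6 loci by system and replicate number (c conventional, o organic) in liver and breast muscle. Locus 2559 has 0 counts in replicate 5 of both systems and locus 658 has counts only in replicate 1, in both tissues. Loci 1985 and 1107 have counts in some liver libraries and at most 1 in muscle.

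Across the 10 numbers, 7 of the 373 loci tested in both tissues (1.88%) had a correlation of 0.9 or more between liver and muscle of the deviation from the group mean, against 0.255% of 10978 annotated genes. The share was 0.144% of the annotated genes with a symbol and 0.781% of the 1921 without one. At a correlation of 0.7 or more the shares were 9.38% of the loci and 4.21% of the annotated genes. For annotated genes without a symbol the share at that cut was 6.45%. These shares are a description over 10 pairs of libraries per locus or gene. They were not matched for abundance, so the larger share of the loci is no result about them. The loci on chromosome W were scarce, with 1 to 168 counts in all per library. Locus 2640 held 125 of them in organic muscle replicate 2 and 58 in conventional muscle replicate 5, and 0 in the other 18 libraries.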

How the data were processed

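Counts and FPKM of 27170 entries in 20 libraries were used as the authors deposited them, with names, positions, lengths and protein matches. HISAT2 2.0.5, DESeq2 1.20.0 and the build GRCg6a appear, with no role for each, in the submitters' processing notes. Not given in the sources used here are read layout, strandedness, counting tool and the program that defined the unannotated loci. Each deposited FPKM was the authors' count over the length and a library factor, 0.824 to 1.19 times the library total. FPKM entered alternatives and levels per length only. For 1 item of the table nothing is reported, and no sequence is printed because no genome of the build was used.

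The main test on counts was edgeR's quasi-likelihood F-test (edgeR 4.0.16, R 4.3.3; robust, TMM, filterByExpr with a minimum count of 10), two-sided, with Benjamini-Hochberg adjustment over all genes tested and a threshold of 0.05. Tissues were compared over all 20 libraries with 4 group means, systems within each tissue, and the difference between tissues over all 20. A ± beside a log2 fold change gives the SE, its size over the square root of F, and one after a CPM or FPKM is an SD (n = 10 per tissue unless given as 5). Where a tissue had 0 counts, the fold is a bound at 3 counts over its 10 libraries. Ratios with an interval use 95% exact (Clopper-Pearson) limits, which cover counting error only. Alternatives were DESeq2 1.42.0, limma 3.58.1 on log2(FPKM + 0.5) and log2(FPKM + 0.1), other scalings, no filter, the replicate block and leaving out each library. The method was tested on simulated counts.

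The members, gene lists and tests were chosen with earlier results of these data known. Loci were named by a rule: the 8 most abundant per tissue, the 5 largest tissue changes each way, the 5 smallest p per system test and between tissues, and the 3 longest and shortest. Other named loci were chosen after their values were seen. In the marker lists, 11 of 13 hepatocyte, 6 of 14 muscle fibre, 6 of 8 erythrocyte, 8 of 10 T cell, 8 of 10 macrophage, 8 of 8 fibroblast and 6 of 8 endothelial genes were found by symbol. Mean log2 CPM in liver and in muscle was 1.58 to 2.64 and -0.59 to 0.92 for T cells (CD8A at 0 in muscle), 4.59 to 5.67 and 0.82 to 2.64 for macrophages, 2.58 to 4.45 and 1.73 to 3.70 for erythrocytes, and 4.63 to 5.78 and 4.78 to 5.45 for endothelium.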

Additional observations from a re-analysis of the deposited data

Results flagged for a closer look

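In 114 groups of 5 libraries, 1 library stood apart from the others in 7 by Dixon's test, and chance gives about 1 in 20. Locus 1391 (telethonin) had 1.03 CPM in conventional liver replicate 4. Locus 666 (SERCA1) had 208 CPM in conventional muscle replicate 3. Locus 2100 had 18.3 CPM in organic liver replicate 4, against 2.82 to 6.55 in the other 4. Locus 355 had 11.5 CPM in conventional liver replicate 1, against 0.175 to 1.26 in the others. Locus 591 had 39.0 CPM in conventional liver replicate 5, and its tissue log2 fold change of 5.42 was 4.88 without that library. Locus 1298 had 9.41 CPM in organic liver replicate 1, and locus 1080 had 0.482 CPM in conventional liver replicate 4, both below the rest.

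For locus 2188 every organic liver library was above the conventional mean and every organic muscle library below it. The difference of the system change between tissues was 3.61 ± 0.99 on the log2 scale (edgeR, adjusted p = 0.819), with 17 counts in all liver libraries together.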

How the results depend on the processing

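The 716 loci called between tissues became 1279 with DESeq2, 1518 with no filter, 1431 and 1421 with limma on log2(FPKM + 0.1) and log2(FPKM + 0.5), and 465 with organic libraries only; these settings test other sets of loci or fewer libraries. They became 719 and 718 with relative log expression scaling and library totals. With conventional libraries only, again fewer libraries, they became 514, and 738 to 781 when 1 library was left out. The filter asks for fewer libraries when a group is smaller, so the last counts can rest on more loci tested. Library totals moved the median log2 fold change of all genes from 0.07 to 0.20. For raising system the count was 0 in each tissue and between tissues under all settings run, every library left out included (0 to 0), except 1 in muscle with DESeq2 (locus 715, log2 fold change 1.61, adjusted p = 0.0477). Of the 63 loci followed between tissues and the 5 in each other test, none reversed its direction. With organic libraries only, loci 1140, 157 and 1452 no longer passed between tissues. Leaving out 1 library moved the tissue fold of 9 of the 63 by over 1.5 times: 1391 (-14.11 without conventional liver replicate 4), 1840 (14.90 without organic muscle replicate 3), 1842 (from 12.98 to 14.34 without organic muscle replicate 4), 591 (6.09 without organic muscle replicate 2), 1853 (10.55 without organic muscle replicate 3), 722 (10.28 without conventional muscle replicate 2), 1107 (9.10 without organic muscle replicate 1), 355 (2.41 without conventional liver replicate 1) and 933 (2.80 without conventional muscle replicate 2). Loci 355 and 1080 moved from -5.71 to -3.84 and from -4.23 to -3.33 in the test between tissues.

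Same-numbered liver and muscle libraries of a system deviated together over the 919 loci, as a hint from the data. There r was 0.175 to 0.273, against -0.138 to 0.073 for other numbers, and 10 of 10 were best with their own number. Over all genes r was 0.047 to 0.191 (median 0.142), not past 0.1 in every pair, against -0.144 to 0.061 (median -0.031) for other numbers. In that set 9 of 10 liver libraries and 10 of 10 muscle libraries were best with their own number. With the replicate block, set by system and number, 727 loci were called between tissues, 704 of them among the 716. For the difference of the system change between tissues it gave 0. Within a tissue the block was the number alone, which joins conventional and organic libraries of different chicks. It gave 0 for system in liver and 0 in muscle, and no label gives that pairing.

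By summed FPKM the share was 1.69% and 1.70% in conventional and organic liver and 1.3% and 1.31% in muscle, so that liver, lower by counts, was the higher tissue. Without the mitochondrial genome it was 1.32% and 1.35% in liver. Without each tissue's most abundant locus it was 1.02% and 1.01% in conventional and organic liver and 0.899% and 0.917% in muscle. With 1 library left out it was 1.18% to 1.25%, 1.18% to 1.25%, 1.30% to 1.35% and 1.35% to 1.41% in conventional and organic liver and muscle. Loci with at least 1 count per library were 1754 and 1711.2 in liver and 1528.4 and 1521.8 in muscle, and loci of at least 1 FPKM were 707.6 and 643.6 in conventional and organic liver and 614.8 and 625.2 in muscle. Those with 10 counts or more were 728 to 757, 715 to 750, 598 to 615 and 580 to 590 with 1 library left out. 633 loci lay within 1000 bases of a gene and 0 were overlapped over 50% of their length. Of loci under 500 bases few had counts enough to be tested.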
